A study of Mus musculus with 2 samples.

Results

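The barcodes described here were the droplets of a mouse brain single-cell experiment in which haemoglobin mRNA was a large share of the RNA. A barcode was a member when it held at least 500 unique molecular identifiers (UMIs, 1 per captured transcript), at most 20% of them from mitochondrially encoded genes, and at least 3000 per 10000 UMIs from Hba-a1, Hba-a2, Hbb-bs and Hbb-bt together. Members were thus chosen by their measured UMIs, mitochondrial share and globin share, and these values are given as descriptions. No lower limit was set on the number of genes. The rule took 576 of 18041 barcodes that met the UMI and mitochondrial limits, 436 of 7656 in one library and 140 of 10385 in the other.

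The first library came from wild-type (WT) mice. The second came from Dmp1Cre-Mfn2flox/flox mice, in which Cre recombinase under control of Dmp1 removes Mfn2 from astrocytes that express Dmp1; it is called the cKO-labelled library. Both groups were male and 6 weeks old, and each library pooled all digested cells of 3 brains, so each group had 1 library, the brains could not be separated, and no difference between the libraries could be tested. Intervals are at 95% and cover counting error only.

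Red blood cells deliver oxygen with haemoglobin, a tetramer of alpha and beta globin chains around heme. Late in their formation erythroblasts load their cytoplasm with globin mRNA, expel the nucleus and become reticulocytes, which then clear mitochondria and ribosomes while they keep a shrinking pool of mRNA. Red cells reach the brain in its blood vessels.

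The 4 genes of the rule lie in clusters of near-identical copies. In GENCODE M21 on GRCm38, Hba-a1 lies at chr11:32283511-32284465 and Hba-a2 at chr11:32296489-32297298, both on the plus strand. Hbb-bs lies at chr7:103826534-103828096 and Hbb-bt at chr7:103812524-103813996, both on the minus strand. Alas2, whose product starts heme synthesis in erythroid cells and which the rule did not use, lies at chrX:150547375-150570638. The 250 bases before the RefSeq start of the globin genes and Alas2 (GRCm38.p6, 5′ to 3′ on the strand of the gene) are shown because the globin genes chose the members and Alas2 had one of the highest ratios over other barcodes in both libraries. Capitals mark matches on either strand to the GATA-type letters (AGATAA or, equally, TGATAA, a final G in place of the last A also being allowed), to CACCC, to the CCAAT box and to the TATA-type letters ATATAA. The build of the deposited counts is not given in the sources used here.
Hba-a1, chr11:32283422-32283671, plus strand: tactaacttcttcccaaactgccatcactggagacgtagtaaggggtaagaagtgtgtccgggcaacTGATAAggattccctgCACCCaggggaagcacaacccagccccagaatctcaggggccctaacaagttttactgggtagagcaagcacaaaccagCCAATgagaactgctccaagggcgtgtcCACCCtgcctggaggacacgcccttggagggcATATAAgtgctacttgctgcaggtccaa
Hbb-bs, chr7:103827929-103828178, minus strand: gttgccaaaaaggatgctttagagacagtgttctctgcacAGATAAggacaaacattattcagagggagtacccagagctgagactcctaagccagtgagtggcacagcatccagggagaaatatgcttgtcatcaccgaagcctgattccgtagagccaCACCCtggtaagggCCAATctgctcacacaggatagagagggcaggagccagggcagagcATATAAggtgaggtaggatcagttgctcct
Hbb-bt, chr7:103813924-103814173, minus strand: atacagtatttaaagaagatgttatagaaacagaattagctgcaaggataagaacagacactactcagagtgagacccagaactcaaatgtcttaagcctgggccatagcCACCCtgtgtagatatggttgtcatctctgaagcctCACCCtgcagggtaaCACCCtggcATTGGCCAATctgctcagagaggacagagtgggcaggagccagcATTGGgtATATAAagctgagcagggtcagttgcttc
Alas2, chrX:150547167-150547416, plus strand: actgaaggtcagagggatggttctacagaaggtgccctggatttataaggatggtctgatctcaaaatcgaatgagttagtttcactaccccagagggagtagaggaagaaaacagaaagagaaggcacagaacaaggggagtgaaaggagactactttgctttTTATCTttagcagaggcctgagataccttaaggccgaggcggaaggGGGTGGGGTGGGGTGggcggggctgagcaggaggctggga

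The windows of Hba-a1, Hbb-bs and Alas2 each held 1 GATA-type match, that of Hba-a1 183 bases, that of Hbb-bs 210 bases and that of Alas2 86 bases before the start. The window of Hbb-bt held none of these GATA-type letters. CACCC, the core letters of the element that KLF factors such as Klf1 bind, was found 2 times in the Hba-a1 window, 1 time in that of Hbb-bs, and 3 times each in those of Hbb-bt and Alas2, where the 3 stand side by side on the reverse strand. CCAAT was found 1 time in each of the Hba-a1 and Hbb-bs windows and 3 times in that of Hbb-bt, of which a pair stand head to head without a gap. The TATA-type letters stood 28 to 30 bases before the start in the 3 globin windows and were not found in that of Alas2. Over all 32851 promoter windows of this length, 26.5% held a GATA-type match, 52.0% CACCC, 33.8% CCAAT and 9.10% the TATA-type letters. The Hba-a2 window shared a run of 247 of 250 bases with that of Hba-a1 and is not shown.

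In both libraries the haemoglobin share of barcodes was split into a large group near 0 and a small group near the top, with few barcodes between. Of the WT members, 383 (87.8%) held 8000 or more haemoglobin UMIs per 10000, and of the cKO-labelled members 115 (82.1%) did. Between 3000 and 5000 per 10000 lay 29 WT and 14 cKO-labelled members, and between 5000 and 8000 lay 24 and 11. The threshold cut through a thin part of the distribution. Just outside it, from 2500 to 3000 per 10000, lay 10 WT barcodes with a median of 1340 genes and 6 cKO-labelled ones with a median of 2090. Just inside it, from 3000 to 3500, lay 13 WT members with a median of 1447 genes and 8 cKO-labelled members with a median of 1947. The members are thus a range of haemoglobin share, and values are given below for all members and for those with 8000 or more, a second limit chosen after the data were seen.

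**Figure D1:**
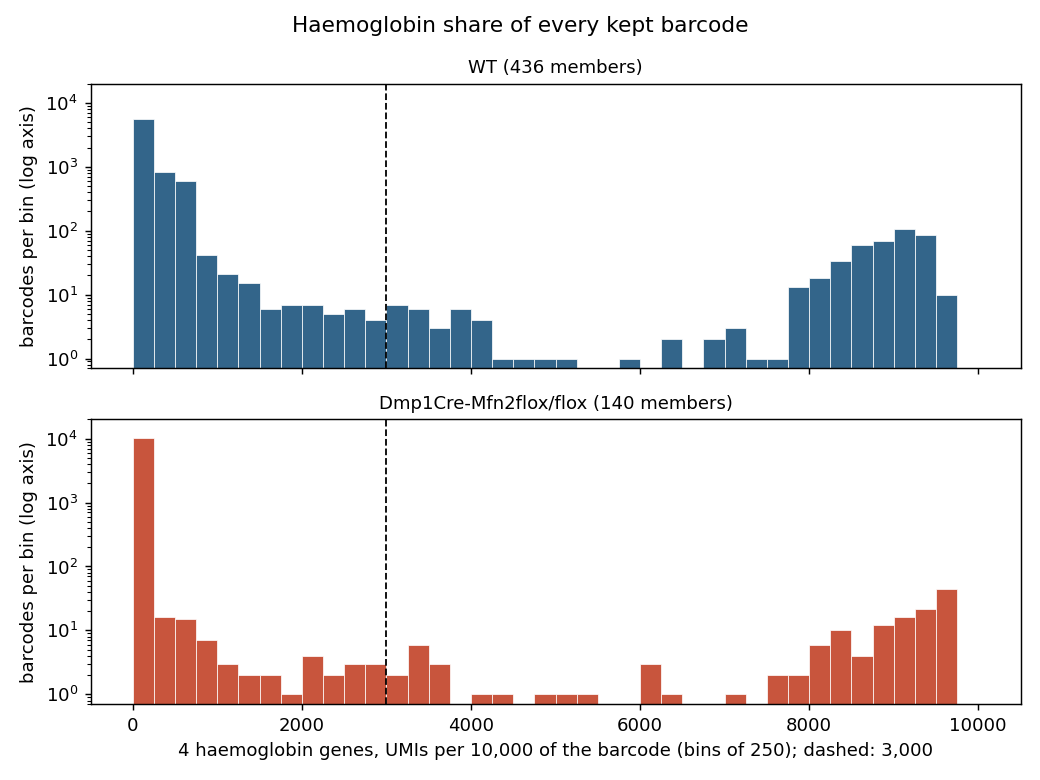
Histogram of the 4 haemoglobin genes' share, in UMIs per 10000 on the x axis (bins of 250), for every barcode that met the UMI and mitochondrial limits in the WT library (top) and the cKO-labelled library (bottom), with the number of barcodes on a log y axis; the dashed line is the limit of 3000. The 436 WT and 140 cKO-labelled members lie right of the line, and 383 and 115 of them stand at 8000 or more.

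Members made up 5.69% (5.19% to 6.24%, Clopper-Pearson) of WT barcodes and 1.35% (1.14% to 1.59%) of cKO-labelled barcodes, a difference of -4.35 percentage points (-4.93 to -3.79, Newcombe). The interval does not cover the spread between brains or between dissociations, so the difference belongs to these 2 libraries and cannot be told apart from how each was prepared. Haemoglobin RNA was also present outside the members. The other WT barcodes held a median of 41.3 haemoglobin UMIs per 10000 (quartiles 21.6 and 166), and the other cKO-labelled barcodes held 1.63 (0 and 3.86). Members held 65.7% of all haemoglobin UMIs of the WT library and 85.1% of those of the cKO-labelled library. Haemoglobin was 2.74% of all UMIs in the WT library and 0.519% in the other.

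Members held fewer UMIs than the other barcodes and far fewer genes. WT members ranged from 635 to 21965 UMIs with a median of 1959, and from 77 to 3797 genes with a median of 150.5. The cKO-labelled members ranged from 504 to 20639 UMIs with a median of 2021.5, and from 51 to 3436 genes with a median of 101.5. The other barcodes had medians of 5701 UMIs and 2081.5 genes in the WT library and 6375 UMIs and 2222 genes in the cKO-labelled library. Once the 4 globin genes were set aside, a member held a median of 200 UMIs in WT and 130.5 in the cKO-labelled library. A lower limit of 300 genes would have removed 389 of the 436 WT members and 119 of the 140 cKO-labelled members. Mitochondrially encoded genes gave a median of 0.307% of a WT member's UMIs and 0.347% of a cKO-labelled member's, figures that the haemoglobin share itself lowers. The libraries shared 26 barcode sequences. No barcode was a member in both, and 3 WT members had a barcode that also occurred in the other library.

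**Figure D2:**
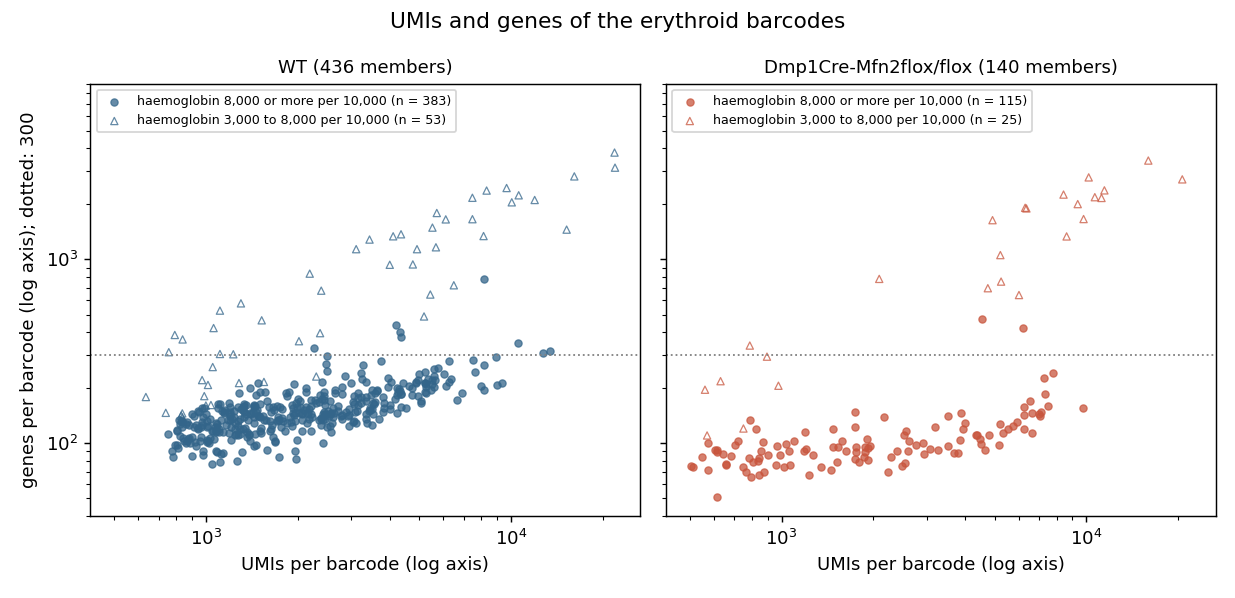
Genes against UMIs, both on log axes, for each of the 436 WT members (left) and 140 cKO-labelled members (right); filled circles hold 8000 or more haemoglobin UMIs per 10000, open triangles 3000 to 8000, and the dotted line is at 300 genes. Most circles lie under the line over the whole range of UMIs, while most triangles lie above it.

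The 2 layers of members differed in what else they held. The 53 WT members under 8000 per 10000 had a median of 642 genes and the 25 cKO-labelled ones a median of 1329, against 146 and 95 in members at or above it. These few barcodes held 62.0% of all non-globin UMIs of the WT members and 84.0% of those of the cKO-labelled members, so sums over all members lean on them. At least 5 UMIs from at least 2 markers of another lineage were found in 34 of the 53 WT members and 22 of the 25 cKO-labelled members under 8000, and in 69 of 383 and 12 of 115 at or above it. No doublet caller was run, and whether such a barcode held a second cell was not tested.

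The label was checked on erythroid genes outside the rule. Alas2 gave at least 1 UMI in 417 of 436 WT members and 108 of 140 cKO-labelled members. Members were 2.21% of all UMIs of the WT library and 0.572% of those of the cKO-labelled library, yet they held 74.5% and 82.5% of all Alas2 UMIs. Slc4a1, the anion exchanger band 3 of the red cell membrane, was sparse, with 97 UMIs in 48 WT members and 5 UMIs in 5 cKO-labelled members. At least 1 of the 9 erythroid markers measured was found in 431 WT members (98.9%) and in 119 cKO-labelled members (85.0%). That count is not particular to members: at under 10 haemoglobin UMIs per 10000, 73.8% of WT and 45.8% of cKO-labelled barcodes also held 1, while Alas2 was found there in 3.67% and 0.117%. Outside the values of the rule, the name erythroid therefore rests on Alas2 in both libraries, and on Slc4a1 mainly in the WT library.

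After each barcode was thinned to 500 UMIs in all, Alas2 was detected in 66.5% (61.9% to 70.9%) of WT members and in 39.3% (31.1% to 47.9%) of cKO-labelled members. In barcodes with microglia markers outside the members it was detected in 1.32% of WT and 0.277% of cKO-labelled barcodes (0 members left out as too shallow, median depths 6359.5 and 6128.5 UMIs, against 1959 and 2021.5 in members). Unthinned, the shares were 95.6% and 77.1% in members and 11.8% and 0.450% in barcodes with microglia markers. Bpgm was detected in 42.0% of thinned WT members and 27.9% of cKO-labelled ones. Thinning matched total UMIs only. Since globins were 81.4% and 77.3% of the members' UMIs, thinned members held fewer non-globin UMIs than thinned barcodes with microglia markers, so genes that are not erythroid are compared below by their level among non-globin UMIs and not by these shares.

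The globin chains themselves differed between the libraries. The values of the 4 genes chose the members, and their mutual ratios are a description. WT members summed to 188242 Hba-a1, 144318 Hba-a2, 544603 Hbb-bs and 110350 Hbb-bt UMIs. The cKO-labelled members summed to 81292, 63768, 190396 and 32245 in the same order. Alpha over beta UMIs was 0.508 (0.506 to 0.510) in WT and 0.652 (0.647 to 0.656) in cKO-labelled members. Over single barcodes it ranged from 0.0465 to 1.28 with a median of 0.512 in WT (quartiles 0.461 and 0.567), and from 0.180 to 1.18 with a median of 0.678 in cKO-labelled members (quartiles 0.600 and 0.757). The quartile ranges did not overlap, while the full ranges did. Among members of 8000 or more, 109 of 115 cKO-labelled barcodes (94.8%) lay above the WT median, and 19 of 383 WT barcodes (4.96%) lay above the cKO-labelled median. The haemoglobin RNA outside the members differed between the libraries in the same direction, with alpha over beta at 0.412 in the other WT barcodes and 0.661 in the other cKO-labelled ones.

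Hbb-bs and Hbb-bt encode the adult beta chains and lie close to each other. Hbb-bt gave 16.8% (16.8% to 16.9%) of beta UMIs in WT members and 14.5% (14.3% to 14.6%) in cKO-labelled members. The sums hide a broad spread in the cKO-labelled library. WT barcodes had a median of 16.5% with quartiles at 13.9% and 18.9%, and cKO-labelled barcodes a median of 12.01% with quartiles at 3.86% and 18.2%. Under 8% lay 50 of 140 cKO-labelled members (35.7%) and 23 of 436 WT members (5.28%), a limit chosen after the values were seen. The cKO-labelled members under 8% had a median Hbb-bt share of 2.28%, a median of 1308 UMIs and Alas2 UMIs in 31 of 50, and the 90 others a median share of 16.2%, a median of 3589 UMIs and Alas2 in 77. Their alpha over beta medians were 0.726 and 0.668, so both exceeded the WT median.

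The spread over single barcodes was wider than counting error in both libraries. The median denominator was 1125 beta UMIs in WT and 1122.5 in cKO-labelled members. A barcode's own binomial interval left out the library's summed Hbb-bt share in 249 of 436 WT members (57.1%) and in 117 of 140 cKO-labelled members (83.6%). For the share of Hba-a1 among alpha UMIs, 94 WT (21.6%) and 30 cKO-labelled (21.4%) members lay outside. Its median denominators were smaller, 566 and 766 alpha UMIs, which widens each interval, so the counts do not rank the spread of the 2 shares. The Hba-a1 share was 56.6% in WT and 56.0% in cKO-labelled members. These 2 alpha copies are hard to separate by sequence: of the 60-base windows in the last 300 bases of the Hba-a1 transcript, 75.1% also occurred in that of Hba-a2, against 34.0% of those of Hbb-bs in Hbb-bt. How the authors' counting split reads between copies is not given in the sources used here, and the copy shares are uncertain for that reason. Which brain each barcode came from is not analysed here, so spread within a brain and between the 3 pooled brains cannot be told apart.

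**Figure D3:**
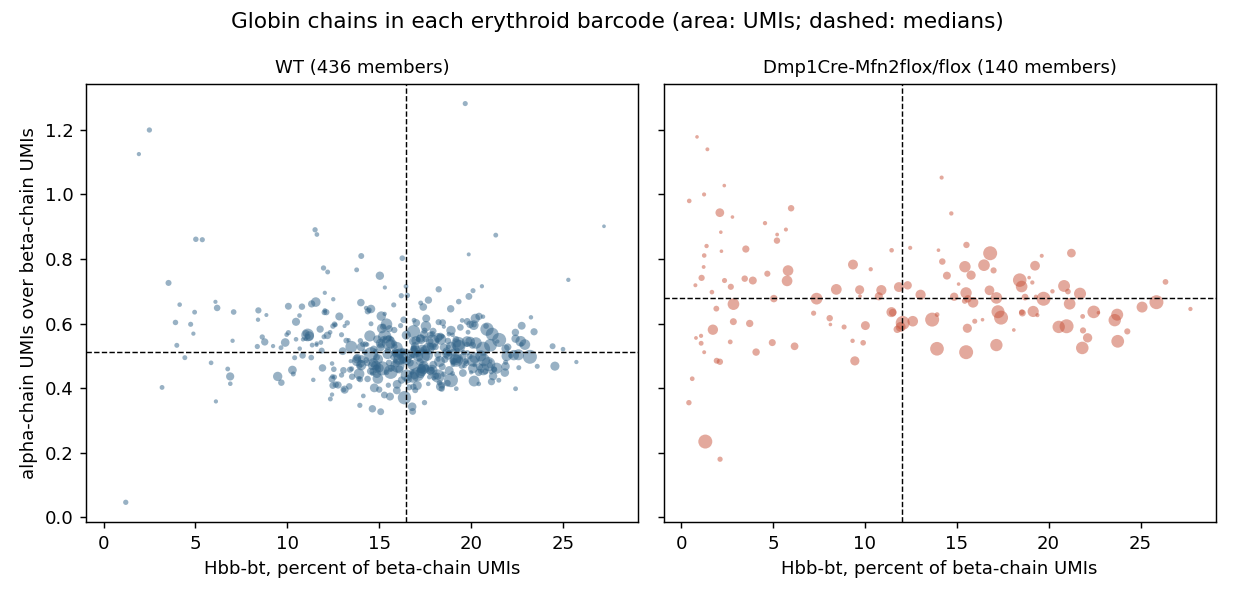
Alpha over beta globin UMIs (y axis) against the percentage of beta UMIs from Hbb-bt (x axis) for each WT member (left, n = 436) and cKO-labelled member (right, n = 140); point area follows UMIs within fixed limits and dashed lines are the medians, 0.512 and 16.5% in WT and 0.678 and 12.01% in the cKO-labelled library. WT points lie mostly in 1 cloud, and 50 of the cKO-labelled points lie under 8% on the x axis.

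Other globin genes were rare. Hbq1a gave 16 UMIs in WT and 11 in cKO-labelled members, and Hbq1b gave 27 and 2. The embryonic genes Hba-x, Hbb-bh1, Hbb-bh2 and Hbb-y gave 0 UMIs in members of both libraries. Against totals of 225689 and 108226 non-globin UMIs, a count of 0 allows up to 3 UMIs.

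Beyond globins, the largest ratios of members over other barcodes included many genes of late red cell formation. Levels are in CPM, UMIs per 1000000 UMIs other than those of the 4 globins, summed over members and, within the same library, over all other kept barcodes. By level alone, genes of other cells stood beside them: Ttr, a choroid plexus gene, was at 17130 CPM in WT and 43538 in cKO-labelled members (11726 and 66548 in other barcodes), and S100a8, a neutrophil gene, at 12203 and 5636 (9535 and 1127), against 12110 and 4869 for Alas2. Their part in the members' profile was not tested. With at least 20 UMIs over both groups, 268 of 15677 genes (1.71%) were at least 2-fold higher in members of both libraries and 479 (3.06%) at least 2-fold lower. Limited to 705 genes with 20 or more UMIs in the members of each library, 59 (8.37%) were higher and 15 (2.13%) lower. In members of 8000 or more, 246 of 15671 genes (1.57%) were higher and 197 (1.26%) lower, and 112 of the 268 were among those higher. Promoter windows were found for 42 of the 59 genes. Of their 58 windows, 15.5% held a GATA-type match, 53.4% CACCC, 39.7% CCAAT and 3.45% the TATA-type letters, so for the GATA-type and TATA-type letters the share was below that of all windows.

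Heme synthesis and iron entry into mitochondria were represented by a few genes at high levels. Alas2 stood at 12110 CPM in WT members against 17.5 in the other barcodes, a ratio of 693 (643 to 747), and at 4869 against 1.35 in the cKO-labelled library, a ratio of 3604 (2929 to 4467). Fech, whose product inserts the iron that completes heme, was 69.1-fold higher in WT and 23.5-fold higher in cKO-labelled members. Slc25a37, the mitochondrial iron importer mitoferrin, was 60.2-fold and 49.7-fold higher. Of 10 heme synthesis genes tested, 3 were higher in both libraries, against 1.71% of all genes. The middle steps Alad, Uros, Urod and Ppox had 6 to 20 UMIs in WT members and 2 to 7 in cKO-labelled ones. The iron list as a whole was at similar levels inside and outside the members, 1.13-fold in WT and 1.26-fold in the cKO-labelled library, with Slc25a37 the 1 of 10 tested genes called higher and Ireb2 the 1 called lower. Tfrc, the transferrin receptor of erythroblasts that still make heme, gave 30 and 33 UMIs.

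Membrane and metabolic genes followed. Of 17 tested genes of the membrane and its skeleton, 8 were higher in both libraries, against 1.71% of all genes. Of these 8, Slc4a1, Sptb, Rhd, Dmtn and Ermap rested on 5 or fewer UMIs in the cKO-labelled library. Epb41, the protein 4.1 that ties spectrin to the membrane, was 38.9-fold and 31.5-fold higher. Slc4a1 was 474-fold and 157-fold higher. Bpgm makes the bisphosphoglycerate that tunes oxygen release. It was 65.5-fold (61.7 to 69.4) and 22.2-fold (19.9 to 24.7) higher, and it was the 1 of 11 tested genes of red cell metabolism called higher, with Adk called lower. The glycolytic genes Gapdh, Aldoa, Gpi1, Pgk1, Eno1 and Ldha stood between 0.488-fold and 1.46-fold in the 2 libraries.

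The ubiquitin and autophagy genes with which reticulocytes clear organelles were among the leading RNAs. Of 16 tested genes 7 were higher in both libraries, and in members of 8000 or more 9 were, against 1.71% and 1.57% of all genes. With 20 or more UMIs in the members of each library 9 were left, with a median log2 ratio of 2.97 in WT and 1.91 in cKO-labelled members. The 705 genes that passed the same limit had medians of -0.15 and 0.15. The limit left out list genes with few UMIs in members, such as Bnip3 and Trim58. These medians thus describe only the genes that passed it. Ube2l6, a conjugating enzyme for ubiquitin and ISG15, was 183-fold (168 to 199) and 232-fold (199 to 269) higher. Mkrn1, a ubiquitin ligase, was 40.2-fold and 30.1-fold higher. Ube2o, which marks ribosomal proteins for removal, was 63.2-fold and 11.7-fold higher. Bnip3l, the receptor for removal of mitochondria in reticulocytes, was 11.97-fold and 5.42-fold higher, while its relative Bnip3 gave 3 UMIs and 1 UMI and was the 1 gene of the list called lower. The autophagy proteins' genes Map1lc3b and Gabarapl2 were 4.56-fold and 7.24-fold higher in WT and 3.18-fold and 3.08-fold higher in cKO-labelled members. Trim58 gave 0 UMIs in both.

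Genes that protect against oxidants and a mixed group of late genes were also among those higher. Of 12 antioxidant genes tested, 4 were higher in both libraries, against 1.71% of all genes. They were Gpx1 (11.2-fold and 5.30-fold), Blvrb (10.9-fold and 5.47-fold), Cat (10.5-fold and 2.38-fold) and Prdx2 (4.06-fold and 2.304-fold). Sod1, Sod2, Gpx4 and Txn1 stood between 0.601-fold and 1.52-fold. Of 11 other late genes, 5 were higher, again against 1.71% of all genes. Among them were Isg20 at 136-fold and 116-fold, Rsad2 at 68.7-fold and 42.3-fold, Fam220a at 39.4-fold and 37.9-fold, and Fam46c at 36.6-fold and 20.6-fold. Genes outside every list, named for the size of their ratio after their values were seen, were Isca1 (18.8-fold and 13.3-fold) and Slc25a39 (17.8-fold and 6.68-fold), which serve iron-sulphur and heme metabolism in mitochondria, Ncoa4 (10.7-fold and 5.51-fold), which releases iron from ferritin, and the surface antigen Cd24a (10.9-fold and 8.11-fold). By the rule for genes outside the lists, Sec61g (7.71-fold and 5.10-fold), Oaz1 (4.93-fold and 4.32-fold) and Pabpc1 (2.99-fold and 3.98-fold) came first.

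Several defining genes of earlier erythroid stages were at or near 0. Gata1 gave 2 UMIs and Klf1 3 UMIs in WT members, and both gave 0 in cKO-labelled members. None of 8 erythroid transcription factors tested was called higher in both libraries, against 1.71% of all genes, so this count does not set them apart. In members of 8000 or more, 1 gene of that list was called higher. The transcription factor list summed to 1.28-fold and 1.64-fold over all members. Of its genes, Lmo2, which other blood and endothelial cells also express, gave 40 and 36 UMIs. Of the early progenitor list, Kit gave 0 UMIs and 1 UMI, and Epor 4 and 0. The 7 genes of that list summed to 23 and 36 UMIs, at 1.18-fold and 3.81-fold over all members. In members of 8000 or more they stood at 0.674-fold and 1.32-fold, so the list as a whole was not low in the cKO-labelled library. None of 12 cell cycle genes tested was higher and 1, Top2a, was lower, near the shares of all genes (1.71% and 3.06%). Mki67 gave 5 UMIs in WT and 0 in cKO-labelled members. The list summed to 61 and 16 UMIs, at 0.545-fold and 0.924-fold over all members and 0.705-fold and 3.25-fold in those of 8000 or more. Ube2c, a mitotic ubiquitin-conjugating enzyme outside the list that was named after its values were seen, was higher at 5.19-fold and 13.3-fold. Mfn2 gave 4 UMIs in 4 WT members and 1 UMI in 1 cKO-labelled member, and Dmp1 gave 3 UMIs in 3 WT members and 0 in cKO-labelled ones. These counts are too small to compare the targeted gene between the libraries in members. They give no check of the labels, since the deletion was aimed at astrocytes, and a 3′ tag need not lie in the deleted part.

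Over all members, whose sums lean on the barcodes under 8000, shares of organelle RNA within non-globin RNA were close to those outside the members. Mitochondrially encoded genes made up 3.27% of non-globin UMIs in WT members and 3.57% in other WT barcodes, and 5.87% and 5.39% in the cKO-labelled library. None of the 13 was called higher or lower over all members. In members of 8000 or more 2 were called higher, against 1.57% of all genes. Ribosomal protein genes gave 12.7% and 12.4% of non-globin UMIs in WT, and 8.35% and 7.75% in the cKO-labelled library. In members of 8000 or more, the mitochondrially encoded share was 3.96% in WT and 6.92% in the cKO-labelled library. The ribosomal protein share there was 13.5% and 8.19%. Malat1, a nuclear RNA abundant in brain cells, was at 0.579-fold and 0.718-fold over all members and at 0.231-fold and 0.444-fold in members of 8000 or more. The genes called lower with 20 or more UMIs in each library included myelin genes, with Mag at 0.153-fold and 0.165-fold.

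**Figure D4:**
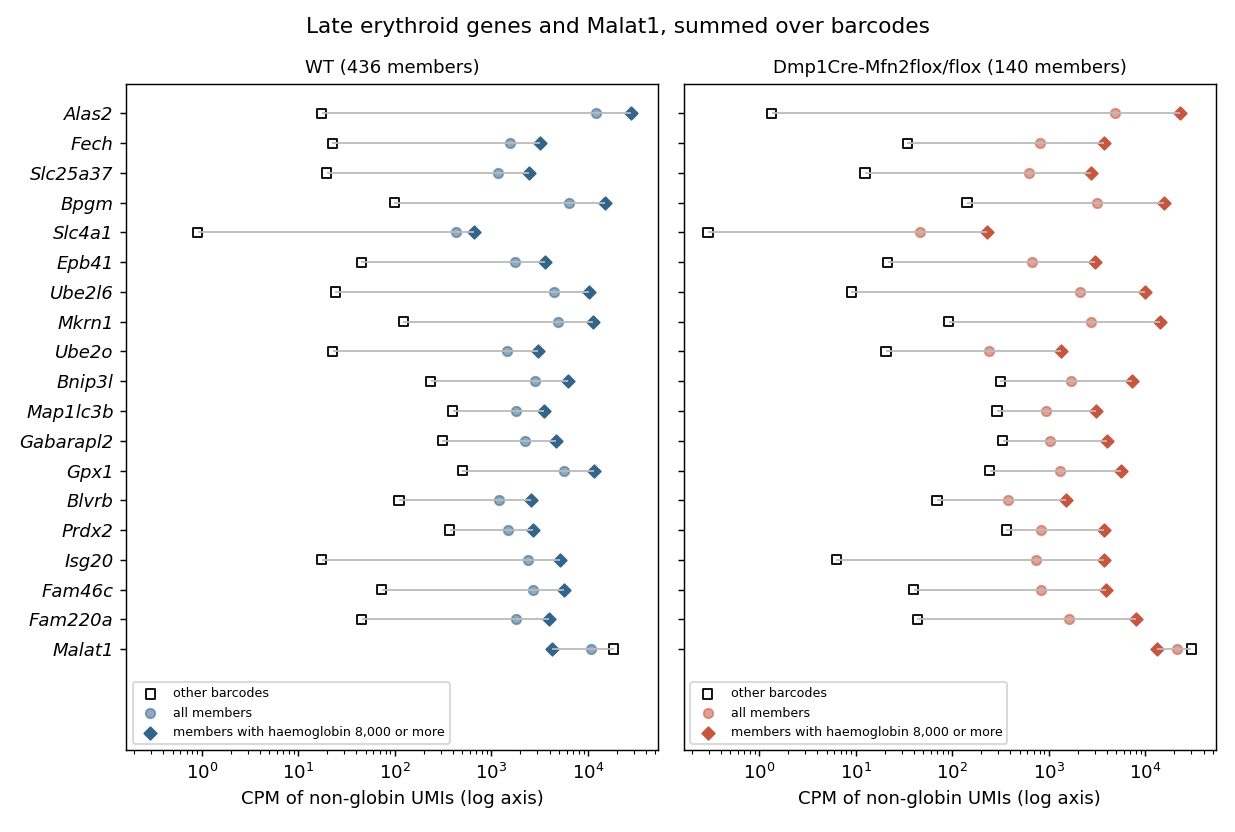
CPM of non-globin UMIs (log x axis) for 18 late erythroid genes and Malat1, summed over other barcodes (open squares), all members (circles) and members of 8000 or more (diamonds), in the WT library (left) and the cKO-labelled library (right). All 18 erythroid genes were among those called higher in both libraries, so their place to the right in members follows from that choice. In both libraries they lie furthest right in members of 8000 or more, and Malat1 lies to the left.

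The same genes were arranged by haemoglobin share within the members. The erythroid markers together stood at 4293 CPM in WT members of 3000 to 5000 per 10000, 23285 at 5000 to 8000, 45345 at 8000 to 9000, 76132 at 9000 to 9500 and 96058 above. In the cKO-labelled library the same steps were 1952, 8306, 20897, 45965 and 75494 CPM. Alas2 alone went from 1850 to 44011 CPM in WT members and from 856 to 33424 in cKO-labelled members over these steps. Malat1 went from 14039 to 2679 CPM in WT members and from 22345 to 6194 in cKO-labelled ones, where the step of 8000 to 9000 stood highest, at 31649. The median number of genes was 1365, 225, 141, 148 and 177 in the WT steps and 1947, 638, 91, 89.5 and 110 in the cKO-labelled ones. Haemoglobin share and gene level were measured in the same barcodes, so these steps are a description.

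Markers of other lineages reached the limits used here in a minority of members, while single UMIs of some were more widespread. At least 1 UMI of Ttr was found in 275 of 436 WT members and 137 of 140 cKO-labelled ones. At least 1 UMI of S100a8 was found in 289 and 9. In WT barcodes with microglia markers, 81.0% also held S100a8. The part of free RNA in these counts was not tested. At least 5 UMIs from at least 2 markers were found for some other lineage in 103 WT members (23.6%) and 34 cKO-labelled members (24.3%), and a stricter limit of 10 UMIs from 3 markers left 33 and 21. In the WT library neutrophil markers were found in 74 members, oligodendrocyte markers in 12 and microglia markers in 10. In the cKO-labelled library oligodendrocyte markers were found in 17 members, endothelial markers in 12 and neutrophil markers in 1. In members of 8000 or more, neutrophil markers remained in 62 WT members and 0 cKO-labelled ones, at a summed level of 12805 CPM against 23470 in all other WT barcodes. Over all members the neutrophil sum was above that of other barcodes, 30812 against 23470 CPM in WT (1.31-fold) and 15837 against 3642 in the cKO-labelled library (4.35-fold), and Retnlg and Mmp8 were among the 59 genes called higher. In the cKO-labelled members 108 UMIs of Retnlg came from 3 barcodes and 34 of Mmp8 from 1. Megakaryocyte and platelet genes, of the lineage nearest to red cells, gave 2 UMIs in each library.

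Between the libraries, sums over all members mixed red cell RNA with that of the other lineages. Of 2497 genes with at least 20 UMIs, 421 (16.9%) were at least 2-fold higher in cKO-labelled members and 396 (15.9%) at least 2-fold lower, around a median log2 ratio of -0.03. The genes furthest up included Slco1a4, Slc2a1, Ramp2 and Igfbp7, which are genes of brain endothelium, and all 6 endothelial markers tested were higher. Those furthest down included Ccl5, Gzma, Cd74, H2-Aa and H2-Ab1, of lymphocytes and antigen-presenting cells, but also Apol11b and Cmas. All 3 class I genes tested (H2-D1, H2-K1 and B2m) were lower, and 5 of 12 mitochondrially encoded genes were higher with none lower. Outside the members the same lists differed in the same direction, class I at 5913 CPM in WT and 1350 in cKO-labelled barcodes, and mitochondrially encoded genes at 35691 and 53925. In members of 8000 or more, 602 genes could be compared, of which 76 (12.6%) were higher and 156 (25.9%) lower around a median of -0.31. Of the 421 genes 34 were also higher there, and of the 396 genes 84 were also lower. Genes with too few UMIs there could not be called, and how many of the 421 and 396 could be compared is not given here. These barcodes are part of the same members, so the overlap is not an independent repeat.

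In members of 8000 or more, several abundant red cell genes stood within 2-fold between the 2 libraries relative to other non-globin RNA. Over all members Alas2 was lower in the cKO-labelled library at -1.31 (-1.45 to -1.18), Ube2l6 at -1.08 and Bpgm at -1.03. There 6 of 7 erythroid markers compared were called lower, with a median of -1.58, against 15.9% and -0.03 over all genes. In members of 8000 or more 2 of 7 were called lower, with a median of -0.26, against 25.9% and -0.31. The values that follow are for members of 8000 or more. The log2 ratio of cKO-labelled over WT was -0.26 (-0.42 to -0.11) for Alas2, 0.07 (-0.13 to 0.26) for Bpgm, -0.03 (-0.28 to 0.20) for Ube2l6, 0.23 (-0.18 to 0.63) for Fech and 0.21 (-0.08 to 0.49) for Bnip3l. Mkrn1 stood at 0.34 (0.14 to 0.55), and Fam220a at 1.03 (0.74 to 1.32), with 336 UMIs in 183 WT members and 139 UMIs in 61 cKO-labelled members. Gpx1 was lower at -1.05 (-1.37 to -0.74), Ube2o at -1.20 (-1.88 to -0.58) and Gclm at -1.81 (-2.90 to -0.90). Slc4a1 was lower at -1.52 (-3.45 to -0.09) on 57 and 4 UMIs. The intervals of Bpgm, Ube2l6, Fech, Bnip3l, Mkrn1 and Fam220a lay above the median of -0.31, and that of Alas2 held it. Isg15, named after its value was seen, Rsad2 and Isg20 are known as interferon-induced genes. Isg15 stood at -2.45 (-3.30 to -1.71), Rsad2 at -0.85 (-1.33 to -0.40) and Isg20 at -0.49 (-0.89 to -0.11). The interval of Isg20 held the median of -0.31, and those of Isg15 and Rsad2 lay below it. Ube2l6, whose product conjugates ISG15, stood at -0.03, as given above. Isg15 was also lower in the barcodes outside the members, at 163 CPM in WT barcodes and 33.6 in cKO-labelled ones.

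**Figure D5:**
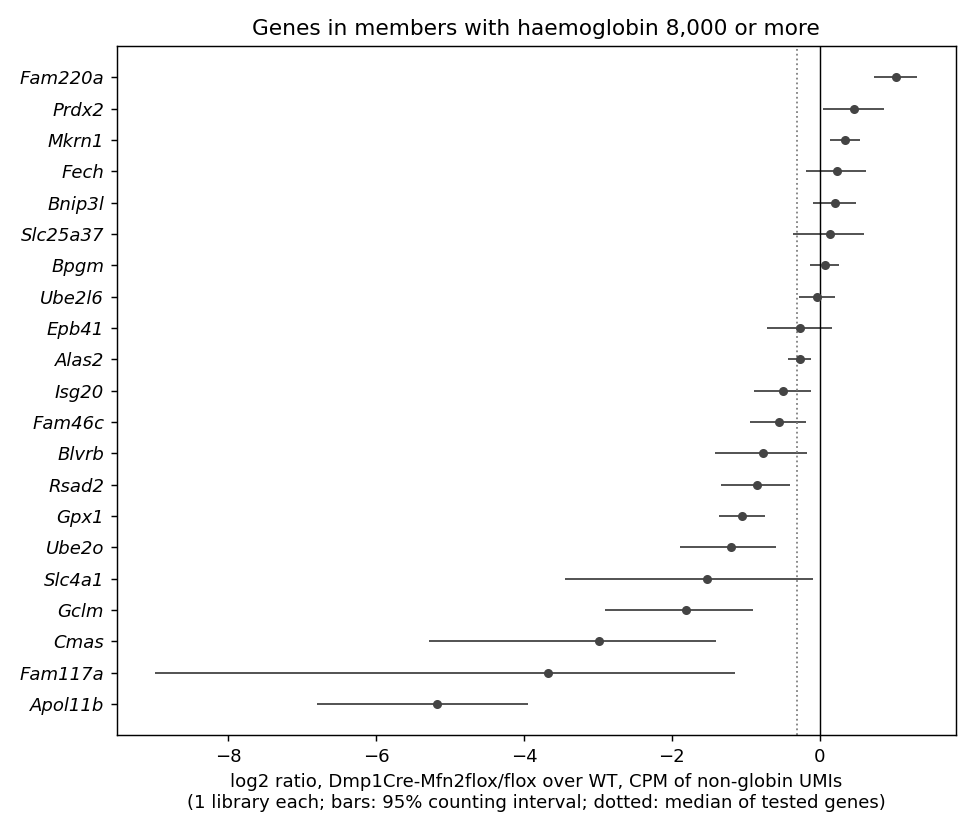
Log2 ratio of CPM of non-globin UMIs, cKO-labelled over WT (x axis), for 21 genes in members of 8000 or more; points are the ratios of 1 library each, bars the 95% counting intervals, and the dotted line the median of all 602 genes compared, -0.31. Apol11b lies furthest left at -5.18, Fam220a furthest right at 1.03, and Bpgm and Ube2l6 lie near 0.

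Apol11b had the largest difference between the libraries among the genes shown in the plot of log2 ratios. It is a member of the apolipoprotein L family and lies at chr15:77633946-77643286 on the minus strand. In WT members it gave 1031 UMIs in 266 barcodes, a level of 4568 CPM against 5.85 in the other WT barcodes, a ratio of 780 (687 to 889). In cKO-labelled members it gave 6 UMIs in 4 barcodes. Members of 8000 or more held 897 UMIs in 233 of 383 WT barcodes and 5 UMIs in 3 of 115 cKO-labelled ones. The log2 ratio of the libraries was -6.36 (-7.81 to -5.24) over all members and -5.18 (-6.81 to -3.95) in those of 8000 or more. Set against Alas2 in the same barcodes, a measure that does not depend on the number of members, Apol11b gave 37.7 UMIs per 100 Alas2 UMIs (35.1 to 40.5) in WT and 1.14 (0.416 to 2.49) in cKO-labelled members. The barcodes outside the members gave 33.5 (29.3 to 38.1) on 310 Apol11b UMIs in the WT library and 0.909 (0.0228 to 5.17) on 1 UMI in the cKO-labelled one. By the same measure Bpgm gave 53.1 and 64.7 per 100 Alas2 UMIs, Mkrn1 40.8 and 56.7, and Ube2l6 36.3 and 42.7.

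Cmas and 3 further genes were also lower in cKO-labelled members, on fewer counts. Cmas, which activates sialic acid, gave 142 UMIs in 90 WT members and 4 UMIs in 2 cKO-labelled members, or 5.20 (4.36 to 6.15) and 0.759 (0.206 to 1.95) per 100 Alas2 UMIs. Its log2 ratio was -4.09 over all members and -2.99 (-5.29 to -1.41) in those of 8000 or more. In members of 8000 or more, Fam117a stood at -3.67 (-9.00 to -1.14) on 63 UMIs and 1 UMI, Bsdc1 at -3.45 (-8.78 to -0.91) on 54 and 1, and Gng5 at -4.36 (-7.41 to -2.49) on 203 and 2; these 3 were named after their values were seen. Over all members the differences of Gng5 and Bsdc1 were smaller, -1.31 (-1.71 to -0.92) and -1.92 (-3.19 to -0.85), and that of Fam117a was -4.28 (-7.35 to -2.38). Fam117a and Bsdc1, like Cmas, were higher in WT members than in the other WT barcodes, at 25.2-fold and 9.75-fold, and Cmas at 16.6-fold. Neutrophil genes also lay among the 10 lowest, S100a9 at -3.26 and S100a8 at -3.35, where the WT library held 9305 and 9535 CPM outside the members and the cKO-labelled library 1687 and 1127. At the other end stood Slc2a1 at 3.22 (1.89 to 4.66) and Slco1a4 at 3.20 (1.77 to 4.77), on 15 and 13 UMIs in 3 cKO-labelled barcodes each. Ttr stood at 2.79 (2.60 to 2.98) and Ptgds at 2.25. Outside the members Ttr was also higher in the cKO-labelled library, 66548 CPM against 11726, as were Ptgds, Slco1a4, Enpp2, Qk, Qdpr and Sptbn1. Slc2a1, Bag1 and Cldn5, also among the 10 highest, were lower there, for Slc2a1 233 CPM against 274. The part of free RNA in these differences was not tested.

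The whole non-globin profile of members was set beside that of the library around them. Over genes, Pearson's r of log2 levels (10 added) between members and other barcodes was 0.912 in WT and 0.863 in the cKO-labelled library (16002 and 16592 genes, which are not independent replicates). It was 0.827 and 0.685 in members of 8000 or more. These coefficients describe points that share a library and its free RNA.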

How the data were processed

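Cells of whole mouse brains were profiled in 2 libraries with the Chromium Single Cell 3′ V3.1 kit, per the labels' protocols. CASAVA 1.8, Cell Ranger 3.1.0 and Seurat 2.3.4 are named in the submitters' processing notes; what each did, and which genome build was used, is not given in the sources used here. The authors deposited raw UMI counts, 1 whole number for each gene in each barcode. They held 7751 WT barcodes (54867423 UMIs) and 11034 cKO-labelled barcodes (83237281 UMIs).

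Barcodes with 500 or more UMIs and at most 20% mitochondrially encoded UMIs were kept, with no limit on genes, so that barcodes of few genes were not lost. UMIs were summed over members and over other barcodes and divided by all UMIs other than those of the 4 globins (CPM), since the rule sets the globin share and a total with globins would lower every other gene. Genes with at least 20 UMIs were called at 2-fold, by size alone and with no test. Other barcodes hold under 3000 haemoglobin UMIs per 10000. Ratios against a group without UMIs used 3 UMIs over that group. Shares have Clopper-Pearson intervals, ratios exact conditional binomial intervals and the difference of shares a Newcombe interval. For shares with a UMI, barcodes were thinned to 500 UMIs with a fixed seed. The steps were tested on simulated counts.

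Members and the 35 gene lists were chosen with earlier results of these data known. Of each list, up to 5 genes with the most UMIs in members and those past 2-fold could be named; outside the lists, the 10 largest ratios of members over others and, in each direction, between libraries, with at least 100 UMIs and 50 CPM in the higher group, leaving out mitochondrial, ribosomal protein, predicted and globin genes, beside Mfn2 and Dmp1. Other genes at low counts are named for their role, with their counts. Ahsp, Hbb-bh0 and Tent5c (as Fam46c) are not used here under those names. Promoters are from RefSeq (GRCm38.p6) and gene positions from GENCODE M21 (GRCm38), whose IDs held 30766 of the 30905 feature IDs. Python 3.11.15, NumPy 2.4.6, SciPy 1.17.1, pandas 2.3.3 and Matplotlib 3.10.9 were used. Some genes of the lists are not reported here by name.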

Additional observations from a re-analysis of the deposited data

How the results depend on the processing

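No paired analysis was possible because the groups share 1 replicate number and each has 1 library. With 1 library per group no library could be left out. A limit of 300 genes brought the share of members to 0.647% (WT) and 0.205% (cKO-labelled), and a limit of 1000 UMIs the latter to 1.01%. Alpha over beta was 0.505 in WT at 8000 haemoglobin UMIs per 10000 and 0.512 as the median of barcodes; in cKO-labelled members it was 0.659 at 5000, 0.678 as the median and 0.646 without barcodes that carry markers of another lineage. The Hbb-bt share was 16.5% as the median and 16.7% without such barcodes in WT, and 14.3% at 2000 and 12.01% as the median in cKO-labelled members.

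Genes higher in members numbered 29 as CPM of all UMIs, 468 at 2000 haemoglobin UMIs and 59 with 20 UMIs in the members of each library. Genes lower numbered 8702 as CPM of all UMIs, 2185 with barcodes weighted equally, 134 without other-lineage barcodes, 310 at 5000, 197 at 8000 and 15 with 20 UMIs in the members of each library. Genes higher in cKO-labelled members numbered 118 at 50 UMIs per gene, 1870 at 5 UMIs, 61 without other-lineage barcodes, 139 at 5000 and 76 at 8000. Genes lower there numbered 749 with equal weights, 176 at 50 UMIs, 1109 at 5 UMIs, 139 without other-lineage barcodes, 195 at 5000 and 156 at 8000.

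Alas2 was detected in 86.8% (WT) and 55.4% (cKO-labelled) of members thinned to 1000 UMIs and in 95.6% and 77.1% unthinned. The stricter limit on other-lineage markers left 33 and 21 members. Of the 20 genes named between the libraries, 17 kept direction and side of 2-fold with barcodes weighted equally and 3 fell under 2-fold. At 8000 only 12 could be compared, of which 8 kept both and 3 fell under 2-fold, and without other-lineage barcodes only 6, of which 4 kept both and 1 fell under 2-fold. Filters on UMIs per gene cannot change a ratio. Sparc reversed, to -1.94 without other-lineage barcodes and -0.63 at 8000 (log2); the cause was not tested. The limits of 8000 and of 20 UMIs in each library's members were added after the data were seen. Depth limits every gene under about 20 UMIs in the cKO-labelled members, whose non-globin total was 108226 UMIs.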
